A study of Mus musculus with 2 samples.

Results

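The solute carriers are the largest group of membrane transporter genes in mammals, and this account covers those detected in whole uterus on gestational day 4. Members were chosen by symbol and by the measured FPKM in these libraries. They were the genes whose symbol starts with Slc and a family number, leaving out the glucose transporters Slc2a1 and Slc2a3, with at least 1 FPKM (fragment counts divided by transcript length and by library depth) in either of the libraries. The tables listed 369 such symbols, of which 208 from 46 families passed, 87 were listed at 0 in both libraries and 74 lay above 0 but under the threshold. Among all 20634 genes listed, 12165 passed the same threshold. Of the members, 193 reached 1 FPKM in both libraries, 12 only in f/f and 3 only in ed/ed. Just inside the threshold were Slc23a3, at 1.24 FPKM (f/f) against 0.936 (ed/ed), and Slc25a47, at 0.779 and 1.36. Just outside were Slc41a2, at 0.977 and 0.406 FPKM, and Slc2a10, at 0.965 and 0.706.

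One library carried the label Mettl3 f/f and the other Mettl3 ed/ed, each made from the whole uterus of pregnant females aged 6 to 8 weeks when mated, with the day of the vaginal plug counted as day 1. Mettl3 encodes the catalytic subunit of the complex that writes N6-methyladenosine on RNA. The labels do not say what f and ed mean, in which cells the gene was altered, whether a Cre transgene was present, or how many animals each library holds. Mettl3 itself was at 10.6 FPKM (f/f) against 10.2 (ed/ed), so its level did not separate the libraries, and all directions below rest on their labels. Each genotype had a single library, so nothing could be tested across replicates, and a difference is one between these libraries.

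Solute carriers move ions, nutrients, metabolites and metals across membranes, mostly as exchangers, as cotransporters driven by ion gradients, or as facilitators. Most sit in the plasma membrane, whereas the Slc25 family lies mainly in the inner mitochondrial membrane and many Slc35 proteins carry nucleotide sugars into the Golgi and endoplasmic reticulum. In the uterus around implantation, epithelial transporters help set the composition of the luminal fluid that surrounds the blastocyst. Members were sorted into 8 substrate classes by family, with some genes placed singly by their substrate, so a family can be split between classes. A further 4 genes match the symbol rule but do not encode transporters.

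Solute carriers outside the Slc25 and Slc35 families included genes at both ends of the range of ratios, whereas no member of these 2 families reached 2-fold. On the scale of log2(FPKM + 1), 21 of 208 members (10.1%) were at least 2-fold lower in ed/ed, where 6.22% of all genes compared were lower. At least 2-fold higher were 7 members (3.37%), against 2.68% of all genes. Of the lower members 5 passed the threshold only through f/f, and of the higher members 1 only through ed/ed. At 1 FPKM or more in both libraries, 16 of 193 members (8.29%) were lower and 6 (3.11%) higher. The shares of all genes were then 5.24% and 1.93%. Slc25 and Slc35 together held 60 members and none of the 28 calls as reported. The other transporters had 28 calls among 144 members (19.4%), against 8.9% of all genes called in either direction. That split was chosen after the values were seen. At a mean of at least 5 FPKM the counts were 0 of 44 and 19 of 83. Under the related filter of 5 FPKM in either library, 6.2% of all genes were lower and 2.4% higher. With a pseudocount of 0.1 FPKM, 1 Slc25 and 2 Slc35 members were lower past 2-fold. The SD of the log2 ratio across genes was 0.43 in Slc25 and Slc35, 0.82 in the other transporters and 0.58 in all genes compared. Slc25 and Slc35 were also more abundant, with a median of the mean FPKM of 9.92 against 5.78. Slc25a28, a mitochondrial iron carrier, lay just under the line at 13.7 FPKM (f/f) against 27.2 (ed/ed), and passed 2-fold under each of the 4 other scalings of the libraries. The Golgi sulfate donor carrier Slc35b3, at 8.78 and 15.7 FPKM, passed under scaling by the median ratio and by reference genes.

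The median log2 ratio of the members was -0.24, and that of all 12165 genes was -0.26, and scaling the ed/ed library to the sum, upper quartile, reference genes or median ratio would shift log2 values by 0.09, 0.20, 0.27 or 0.28. The members summed to 4283 FPKM (f/f) and 3511 (ed/ed), or 0.82% and 0.714% of all FPKM. Across members the values of both libraries correlated with a Pearson r of 0.89 on the log2(FPKM + 1) scale, against 0.95 across all genes compared. These points share 2 libraries, and genes are not replicates.

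**Figure D1:**
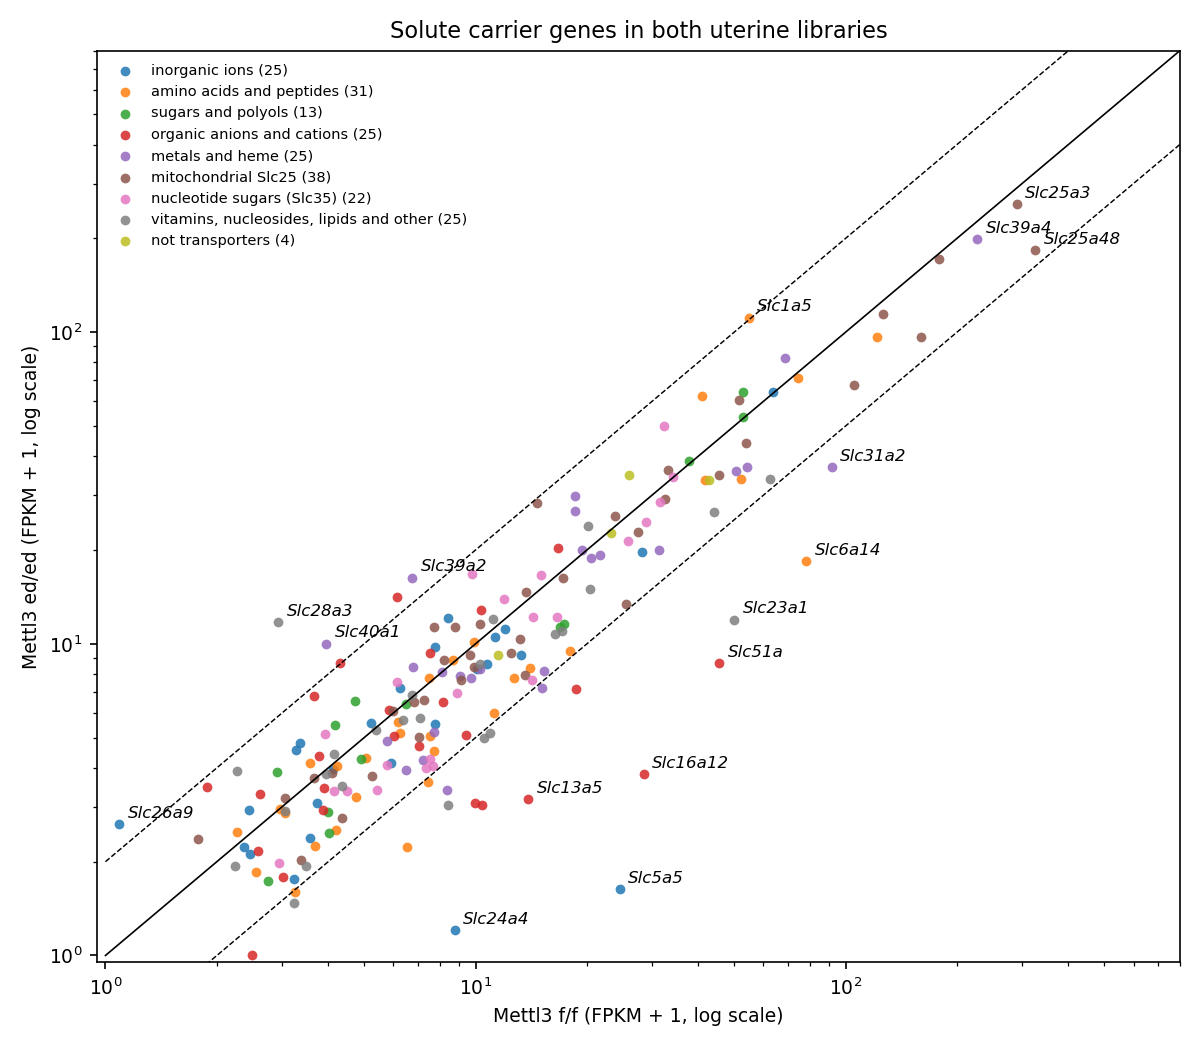
Each point is 1 of the 208 solute carrier genes, with FPKM + 1 in the f/f library on the x axis and in the ed/ed library on the y axis, both on log scales, coloured by substrate class. The solid line marks equal values and the dashed lines 2-fold differences; 21 genes lie on or below the lower dashed line and 7 on or above the upper one.

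Markers of other cell types also differed between the libraries. All 9 stroma markers were lower in ed/ed, with summed levels of 1148 FPKM (f/f) and 569.7 (ed/ed), and so were all 7 endothelial markers, at 184 and 87.8 FPKM. Of all 12165 genes compared, 8564 had a log2 ratio below 0. The 6 smooth muscle markers were all higher, at 470 and 792 FPKM, as were the 4 gland markers detected, at 19.6 and 48.5 FPKM, while Prss29 was listed at 0 in both. Epithelium markers summed to 2847 and 2912 FPKM, with 6 of 10 higher, and leukocyte markers to 115 and 238 FPKM, with 5 of 6 higher. At least 2-fold lower were 4 stroma and 5 endothelial markers, beside 6.22% of all genes. At least 2-fold higher were 1 smooth muscle, 3 gland and 2 leukocyte markers, beside 2.68%. Of the fat markers, Adipoq, Plin1 and Cidec were listed at 0 in both libraries, and of the ovary markers Fshr and Lhcgr. The remaining fat marker, Fabp4, was at 0.519 and 0.633 FPKM. The other ovary markers were Star, at 0.667 and 2.29 FPKM, Inha, at 2.28 and 1.17, Cyp11a1, at 0.149 and 0, and Amh, at 0 and 0.44. The 5 erythroid markers detected summed to 59.7 and 57.6 FPKM. The oviduct glycoprotein gene Ovgp1 was at 40.98 and 60.8 FPKM, beside the ciliated cell markers Foxj1, at 0.487 and 0, and Dnah5, at 1.59 and 0.153. In bulk tissue fewer cells of a type and less RNA per cell cannot be told apart, and the part of cell composition in the results below was not tested.

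The step between neighbouring low values put the depth of the f/f library at 18400000 fragments and that of the ed/ed library at 17200000. A 2000-nt transcript at 1 FPKM corresponded to 32 and 30 fragments. For all 28 members past 2-fold, the 95% counting interval of the unadjusted ratio left out 1. These members were picked by the same values, so the 2-fold rule largely set that outcome. It is no separate support for the calls. Such intervals cover counting error only and not the spread between animals.

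Among carriers of inorganic ions, which set pH, volume and salt secretion, 2 of 25 members were at least 2-fold lower in ed/ed and 1 was higher. These were 8% and 4% of the class, near the 6.22% and 2.68% of all genes compared. The sodium/iodide symporter gene Slc5a5 (chromosome 8, 70882889 to 70892757, minus strand, GRCm38, 15 exons) had rank 3 from the lowest ratio among all 12165 genes. Its level was 23.5 FPKM (f/f) against 0.634 (ed/ed). An estimated 1157 fragments in f/f stood against 29 in ed/ed, an unadjusted ratio of 0.0270 with a counting interval of 0.0178 to 0.0386. Slc24a4 (chromosome 12, 102128733 to 102267091), which exchanges sodium for calcium and potassium, was at 7.80 FPKM (f/f) against 0.204 (ed/ed), 7.31-fold lower on the FPKM + 1 scale. The libraries thus held clear signal for both genes in f/f and values near the lower end of detection in ed/ed.

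In the other direction, Slc26a9, an epithelial chloride transporter of the anion exchanger family, was at 0.0885 FPKM (f/f) against 1.64 (ed/ed). Its unadjusted ratio of 18.5 carried a counting interval from 9.11 to 49.1, since only an estimated 7 fragments lay behind the f/f value. The sulfate transporter gene Slc26a2 was at 2.24 and 0.765 FPKM, within 2-fold on the FPKM + 1 scale. The most abundant ion carrier, the sodium-potassium-chloride cotransporter gene Slc12a2, was at 62.8 and 63.1 FPKM. Next came the chloride/bicarbonate exchanger gene Slc4a2, at 27.1 and 18.8 FPKM. Of 5 Slc12 members and 5 Slc4 members counted with the adaptor gene Slc4a1ap, 0 passed 2-fold. The class had a median log2 ratio of -0.11, which turned positive under 3 of the 4 other scalings.

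Partners of these carriers differed unevenly. The counts below stand beside 6.22% lower and 2.68% higher among all genes compared. Of 12 expressed genes of the sodium pump and its FXYD subunits, which make the sodium gradient, 1 was higher and 0 lower, with Fxyd2 at 1.16 and 4.24 FPKM. Of 8 carbonic anhydrases, which supply bicarbonate and protons, 4 were lower and 1 higher, while their summed level was 305 and 468 FPKM. Most of that sum was Car2, named after its value was seen, at 258 FPKM (f/f) against 443 (ed/ed) and within 2-fold. Car4 was at 10.3 FPKM (f/f) against 2.90 (ed/ed), Car11 at 4.02 and 0.430, Car5b at 19.3 and 8.57, Car15 at 3.14 and 0.953, and Car12 at 2.67 and 7.37. Among 15 kinases and other regulators of ion carriers, Sgk1, a kinase that raises sodium transport, was at 73.2 and 17.6 FPKM. Wnk4, a kinase acting on Slc12 cotransporters, was at 14.8 and 32.5 FPKM, and no other member of that list passed 2-fold.

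Organic anion and cation carriers held the most calls of any class, with 7 of 25 members lower (28%) and 2 higher (8%). The class as a whole was not shifted: its median log2 ratio was -0.26, as over all genes compared, and 13 members lay above that median. Among all genes compared, 6.22% were lower and 2.68% higher. Slc16a12 (chromosome 19, 34668403 to 34747289), a creatine transporter of the monocarboxylate family, was at 27.4 FPKM (f/f) against 2.82 (ed/ed), 7.46-fold lower. Slc51a (chromosome 16, 32474504 to 32487879) encodes the alpha subunit of the organic solute transporter, which carries bile acids and steroid conjugates together with the beta subunit. Slc51a was at 44.6 FPKM (f/f) against 7.66 (ed/ed). Its estimated fragments numbered 1940 and 313, a ratio of 0.172 with a counting interval of 0.152 to 0.194. Slc51b, the gene of the beta subunit, was listed at 0 in both libraries.

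Slc13a5, a sodium-coupled citrate transporter gene, was at 12.9 FPKM (f/f) against 2.18 (ed/ed), and Slc6a2, the norepinephrine transporter gene, at 17.7 and 6.15. The orphan gene Slc10a3 was at 9.43 and 2.05 FPKM, and Slc22a15 at 8.98 and 2.09. Slc16a11 had 1.49 FPKM in the f/f library but a listed value of 0 in the other, so no fold is given, while its neighbour Slc16a13, 372 nt away and named after its value was seen, was at 2.89 and 2.44. These 7 genes came from 6 families, so the lower values were not those of 1 family.

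In the Slc22 family, 5 of 7 members had a log2 ratio above 0, where 3601 of all 12165 genes did. Slc22a23, an orphan of the organic ion family, was at 5.15 and 13.1 FPKM. Slc22a21, Slc22a4 and Slc22a5 lie side by side on chromosome 11 between 53864542 and 54028090, and their products carry carnitine and related zwitterions. Slc22a21 was at 3.31 and 7.66 FPKM, Slc22a4 at 2.66 and 5.78, and Slc22a5 at 15.7 and 19.3. All 3 were higher in ed/ed but only the first passed 2-fold, and Slc22a4 passed under 3 of the 4 other scalings. These paralogs are close in sequence, so the way reads were divided among them is uncertain. Over the 7 Slc22 members the median log2 ratio was 0.32, with 2 higher and 1 lower, beside 2.68% and 6.22% of all genes. Of the 5 members above 0, 3 were these neighbouring paralogs, so the direction of the family rests on few separate genes. The vesicular monoamine transporter gene Slc18a2 was at 0.880 and 2.46 FPKM, within 2-fold as reported and past it under 3 of the 4 other scalings and with the length trend removed.

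Amino acid and peptide carriers had 4 of 31 members lower (12.9%) and 1 higher (3.23%), against 6.22% and 2.68% of all genes compared. Their median log2 ratio was -0.33 and stayed below 0 under all 4 other scalings. Slc6a14 (chromosome X, 21714896 to 21742355), a concentrative carrier of neutral and cationic amino acids, was at 77.3 FPKM (f/f) against 17.45 (ed/ed). It was 4.24-fold lower on the FPKM + 1 scale. Slc7a11 (chromosome 3, 49892526 to 50443614), the light chain of the cystine/glutamate exchanger, was at 5.52 and 1.23 FPKM. Slc36a1, a proton-coupled amino acid transporter found on lysosomes, was at 6.43 and 2.61 FPKM. The intestinal-type peptide transporter gene Slc15a1, named after its value was seen, was at 2.25 and 0.602 FPKM. Both of these lay close to the 2-fold line and moved within it under all 4 other scalings.

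Slc1a5 (chromosome 7, 16781340 to 16798274), a glutamine exchanger, was the single higher member of its class and the most abundant of the 7 higher solute carriers. It was at 53.7 FPKM (f/f) against 110.4 (ed/ed), an unadjusted ratio of 2.06 with a counting interval of 1.96 to 2.16. The peptide transporter gene Slc15a2 was at 40.045 and 61.6 FPKM, within 2-fold and in the opposite direction to Slc15a1. The glutamate transporter gene Slc1a1, the most abundant of the class by the mean of both libraries, was at 121 and 95.8 FPKM. Slc3a2, the heavy chain that brings several Slc7 light chains to the cell surface, was at 40.8 and 32.6 FPKM, and the other heavy chain gene Slc3a1 lay under the threshold at 0.165 and 0.161. Of the 8 Slc7 transporter members 7 had a log2 ratio below 0, and Slc7a7 was at 0.03, where 8564 of all 12165 genes were below 0. Named after their values were seen, the leucine-preferring light chain gene Slc7a5 was at 11.7 and 6.78 FPKM and the arginine transporter gene Slc7a1 at 10.2 and 5.01.

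**Figure D2:**
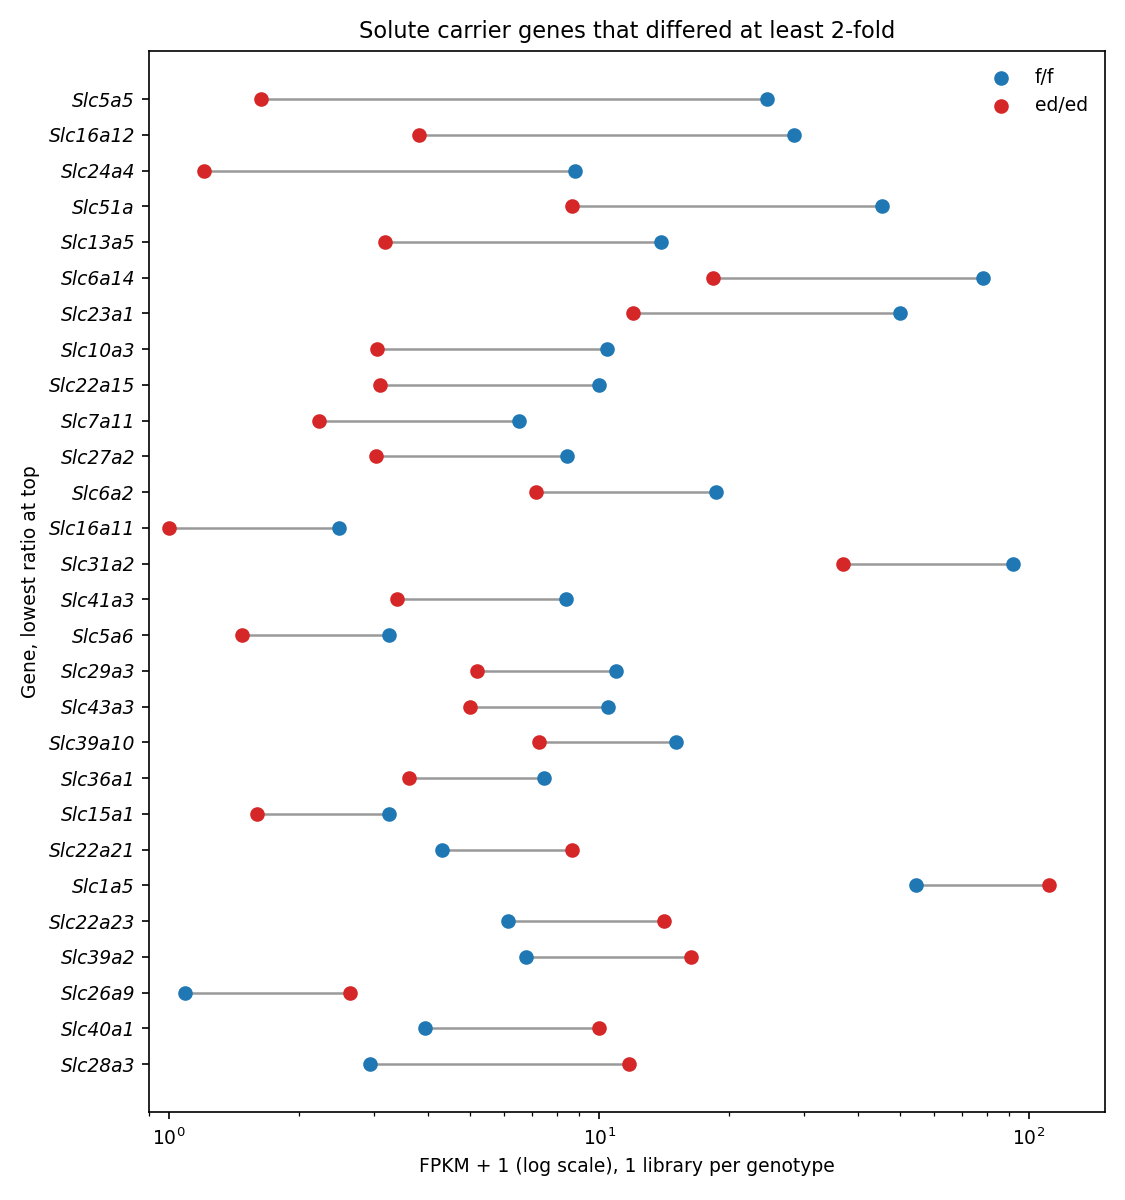
FPKM + 1 on a log scale is shown for the 28 solute carrier genes that differed at least 2-fold, ordered from the lowest ratio at the top, with blue points for the f/f library, red points for the ed/ed library and a grey line joining both. Slc5a5 has the longest line and Slc16a11 is listed at 0 in ed/ed, which plots at 1.

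The start regions of some of these genes are shown because the genes lie at either end of the range of ratios, and in Slc7a11 because a known nutrient-response motif lies there. Sequences are from RefSeq on GRCm38.p6, which held entries for 160 of the 208 members, and each shows the 120 bases just before the transcript start, 5′ to 3′ on the gene's strand. Capitals mark matches on either strand to the TATA box motif TATAAA, the CCAAT box motif, the GC box motif GGGCGG or the amino acid response element core, written TGATGNAA. Among genes past 2-fold, Slc10a3, Slc6a2, Slc23a1, Slc43a3, Slc1a5, Slc22a21 and Slc40a1 had no entry used here.
Slc5a5 (chr8:70892758-70892877, minus strand): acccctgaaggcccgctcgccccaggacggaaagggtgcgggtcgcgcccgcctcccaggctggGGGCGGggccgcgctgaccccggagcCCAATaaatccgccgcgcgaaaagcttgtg
Slc51a (chr16:32487880-32487999, minus strand): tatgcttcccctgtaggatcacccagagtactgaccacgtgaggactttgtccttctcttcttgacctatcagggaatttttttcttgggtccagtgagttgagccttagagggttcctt
Slc6a14 (chrX:21714780-21714899, plus strand): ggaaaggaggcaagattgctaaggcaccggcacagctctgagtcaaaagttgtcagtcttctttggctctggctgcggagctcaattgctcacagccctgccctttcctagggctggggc
Slc7a11 (chr3:50443614-50443733, minus strand): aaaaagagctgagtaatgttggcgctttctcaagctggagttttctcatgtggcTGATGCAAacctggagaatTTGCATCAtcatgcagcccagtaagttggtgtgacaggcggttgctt
Slc28a3 (chr13:58610878-58610997, minus strand): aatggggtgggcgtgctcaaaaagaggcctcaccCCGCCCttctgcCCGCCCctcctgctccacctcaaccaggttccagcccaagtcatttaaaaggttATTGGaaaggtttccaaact
Slc26a9 (chr1:131743902-131744021, plus strand): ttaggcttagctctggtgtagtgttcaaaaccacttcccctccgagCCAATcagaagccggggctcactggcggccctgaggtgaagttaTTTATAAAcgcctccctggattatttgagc

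Within 250 bases before the start, Slc7a11 held the response element core in both orientations. That core was chosen after the sequences were seen, and occurred in 1 of 20 such windows of lower members, 6 of 209 of all members (2.87%) and 2.02% of windows of all genes compared. Slc26a9 had overlapping TATA matches on both strands, and a TATA match was found in 1 of 4 windows of higher members and 0 of 20 of lower members, against 6.36% of windows of all genes compared. GC boxes were found in 8 of 20 windows of lower members (40%), 63.2% of windows of all members and 57.2% of those of all genes compared. The 20 windows came from 17 genes and the 209 from 160, so some genes count more than once. Slc13a5 and Slc5a6 had GC boxes in each of their windows. The CCAAT box was in 9 of 20 (45%), 32.1% and 34.9%. The palindromic estrogen response element was in 0 windows of members and 0 of the 12481 windows of all genes compared. The palindromic progesterone and glucocorticoid response element was found in 1 of 209 windows of members (0.478%) and in 0.264% of all genes compared. A match describes the letters in the window and does not show binding.

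Carriers of metals had 3 of 25 members lower (12%) and 2 higher (8%), against 6.22% and 2.68% of all genes compared. Slc31a2, a copper transporter-like protein of endosomes, was at 90.7 FPKM (f/f) against 35.97 (ed/ed). Its neighbour on chromosome 4, the surface copper importer gene Slc31a1 (named after its value was seen), was at 30.4 and 19.1 FPKM, within 2-fold. Slc41a3, of the magnesium carrier family, was at 7.36 and 2.39 FPKM, and the zinc importer gene Slc39a10, named after its value was seen, at 14.1 and 6.24. The call of Slc39a10 was lost under all 4 other scalings.

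Slc40a1 (chromosome 1, 45908068 to 45926523), which encodes ferroportin, the iron exporter, was at 2.95 FPKM (f/f) against 9.02 (ed/ed). Slc39a2, a zinc importer of epithelia, was at 5.75 and 15.3 FPKM. By the mean of both libraries the most abundant metal carrier was the zinc importer gene Slc39a4, at 226 and 198 FPKM, followed by Slc39a7, which releases zinc from the endoplasmic reticulum, at 67.6 and 81.7. Slc39a6, another zinc importer, was at 17.6 and 28.8 FPKM. Of the 12 Slc39 zinc importers 1 was lower and 1 higher (8.33% each, median log2 ratio -0.26), against 6.22% and 2.68% of all genes. Of 6 Slc30 zinc exporters 0 passed 2-fold. The exporter gene Slc30a4, named after its value was seen, lay just under the line at 14.3 and 7.15 FPKM. Of 23 expressed genes of metal binding and reduction, 3 were lower and 0 higher. Steap3, an endosomal ferrireductase, was at 17.6 and 5.63 FPKM, the iron oxidase gene Heph, which works with ferroportin, at 5.17 and 1.32, and the metallothionein gene Mt3 at 21.3 and 9.17.

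Carriers of vitamins, nucleosides and lipids, with a few other substrates, had 5 of 25 members lower (20%) and 1 higher (4%). Among all genes compared, 6.22% were lower and 2.68% higher. The ascorbate transporter gene Slc23a1 was at 48.998 FPKM (f/f) against 10.97 (ed/ed), 4.18-fold lower on the FPKM + 1 scale. The widespread ascorbate transporter gene Slc23a2, named after its value was seen, was at 3.36 and 2.49. Slc27a2, which imports and activates long-chain fatty acids, was at 7.41 and 2.03 FPKM. The biotin and pantothenate transporter gene Slc5a6 was at 2.24 and 0.476 FPKM, a call lost with a pseudocount of 5 FPKM and once the trend with transcript length was removed. Named after their values were seen, the lysosomal nucleoside transporter gene Slc29a3 was at 9.94 and 4.19 FPKM and the purine base transporter gene Slc43a3 at 9.51 and 3.999. Both were within 2-fold under 3 of the 4 other scalings.

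Nucleoside carriers differed in direction. Slc28a3 (chromosome 13, 58545399 to 58610877), which concentrates purine and pyrimidine nucleosides with sodium, was at 1.93 FPKM (f/f) against 10.7 (ed/ed). It was 3.99-fold higher on the FPKM + 1 scale. Estimated fragments numbered 153 and 798, and its unadjusted ratio of 5.54 carried a counting interval from 4.67 to 6.65. On the FPKM + 1 scale it had the largest ratio of the higher members, whereas the unadjusted ratio was larger for Slc26a9. It was the only higher member past 2-fold under every alternative run. The equilibrative carrier gene Slc29a1 was at 43.2 and 25.5 FPKM. The choline transporter-like gene Slc44a2 was at 61.5 and 32.8 FPKM, and the urea transporter gene Slc14a1 at 1.27 and 2.90, both within 2-fold as reported, and Slc14a1 passed it with the length trend removed.

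Of 13 sugar and polyol carriers 0 passed 2-fold, where 8.9% of all genes did in either direction. Their median log2 ratio of -0.02 turned positive under all 4 other scalings. The hexose transporter gene Slc2a12 was at 51.7 FPKM (f/f) against 52.3 (ed/ed), and the sodium-coupled inositol transporter gene Slc5a11 at 51.97 and 63.1. The other inositol carriers were lower in ed/ed within 2-fold, with Slc5a3 at 3.02 and 1.47 FPKM and Slc2a13 at 1.75 and 0.739. Slc37a4, which takes glucose 6-phosphate into the endoplasmic reticulum, was at 16.4 and 10.6 FPKM, and Slc37a3 at 15.9 and 10.4.

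Mitochondrial Slc25 carriers were the largest class, with 38 of 47 listed genes above the threshold. They held 38.3% of the summed FPKM of all members in f/f and 37.6% in ed/ed. All lay within 2-fold, where 8.9% of all genes compared did not, with log2 ratios from -0.92 to 0.95. Within 1.5-fold lay 30 of 38, whereas 7.04% of all genes were higher and 23.4% lower past 1.5-fold. Slc25a48, a carrier linked to choline import into mitochondria, was the highest member in the f/f library, at 324 FPKM (f/f) against 182 (ed/ed), and ranked 207 and 350 among all genes of each library. The phosphate carrier gene Slc25a3 was at 289 and 257 FPKM, and Slc25a39, a glutathione carrier, at 125 and 113. The ADP/ATP carrier gene Slc25a4 was at 177 and 171 FPKM, while its paralog Slc25a5 was at 159 and 95.6, and reads of this pair and of their processed copies may have been shared. The oxoglutarate carrier gene Slc25a11 was at 104 and 66.6 FPKM.

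The lowest Slc25 ratio belonged to the carnitine-acylcarnitine carrier gene Slc25a20, which brings fatty acids to oxidation, at 24.5 and 12.4 FPKM. Slc25a32, a carrier for folate and flavin cofactors, was at 12.6 and 6.94 FPKM. The class median of -0.14 turned positive under 3 of the 4 other scalings. The 22 Slc35 members had a median of -0.28, below 0 under all 4 other scalings, and a range of -0.93 to 0.77. Slc35e1 was at 6.69 and 3.05 FPKM, the Golgi carrier gene Slc35b4 at 13.3 and 6.67, Slc35f2 at 6.36 and 2.999, and Slc35a5 at 6.52 and 3.26. Slc35f5, an abundant orphan of the family, was at 31.4 and 48.98 FPKM, and the Golgi sulfate donor carrier gene Slc35b2 at 33.1 and 33.3.

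**Figure D3:**
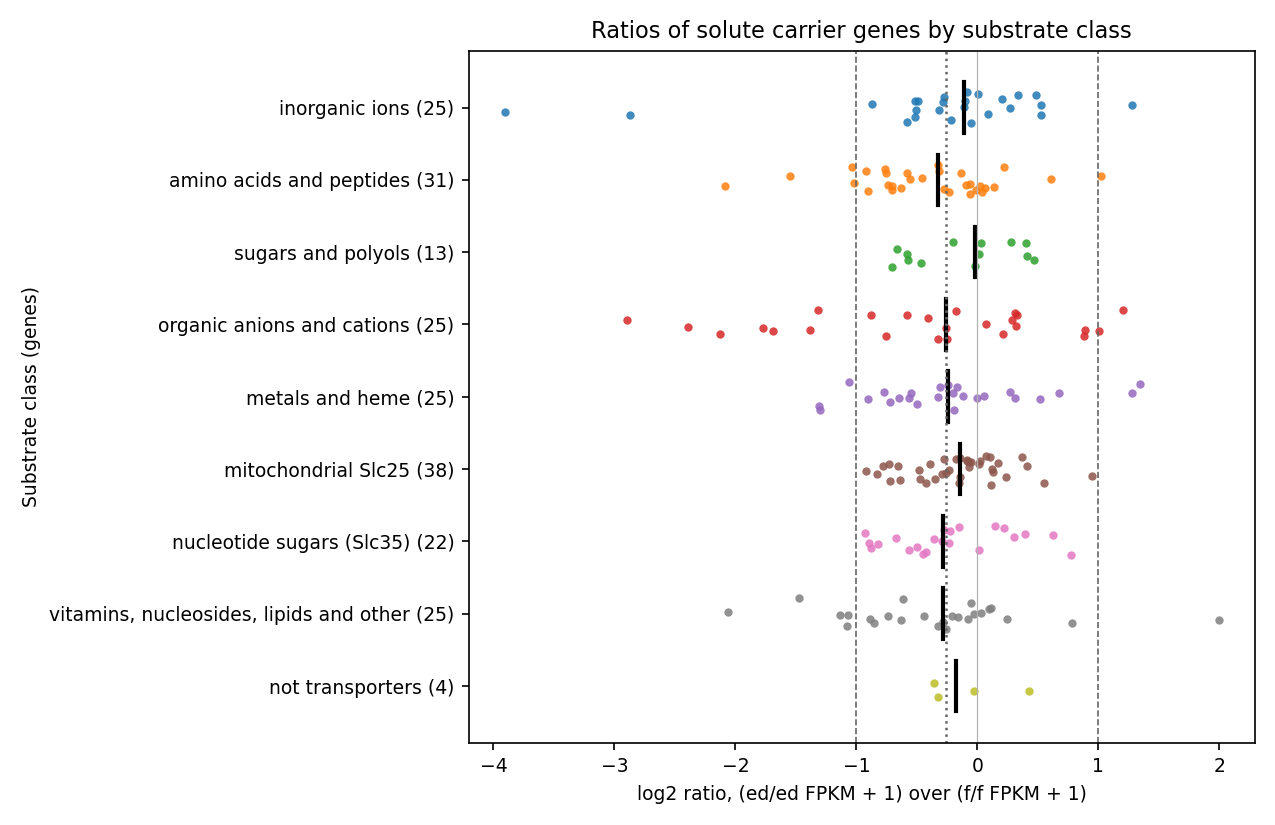
Each point is the log2 ratio of 1 gene, ed/ed over f/f on the FPKM + 1 scale, in rows by substrate class with the number of genes in brackets. Black bars are class medians, the dotted line is the median of all 12165 genes at -0.26 and the dashed lines mark 2-fold; Slc25, Slc35 and sugar carriers stay within the dashed lines.

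Organic anion and cation carriers summed to 211 FPKM (f/f) and 126 (ed/ed), and the vitamin, nucleoside and lipid class to 312 and 201. Much of the difference in the organic anion and cation class lay in Slc51a and Slc16a12. Sugar carriers summed to 199 and 200 FPKM, and Slc35 to 277 and 264. Inorganic ion carriers summed to 229 and 184 FPKM, amino acid carriers to 596 and 513, and metal carriers to 718 and 605. Slc25 carriers summed to 1642 and 1321 FPKM. All genes at the threshold summed to 521240 and 490710 FPKM.

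**Figure D4:**
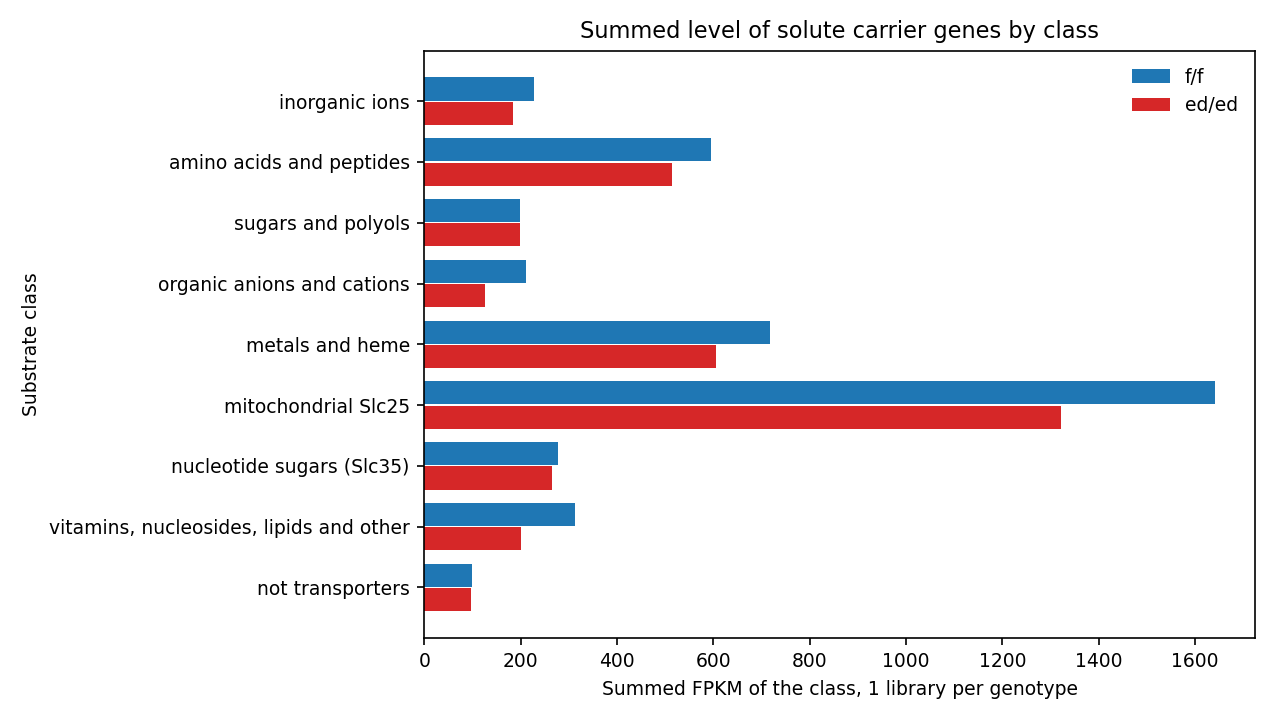
Bars give the summed FPKM of all members of each class, from 0, in the f/f library (blue) and the ed/ed library (red), with 1 library per genotype and no error. The sugar class is level at 199 and 200 FPKM, whereas organic anion and cation carriers stand at 211 and 126.

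The 4 genes that match the symbol rule but encode no transporter lay within 2-fold. The scaffold genes Slc9a3r1 and Slc9a3r2, whose products tether sodium/proton exchanger 3 and other membrane proteins, were at 24.9 and 33.8 FPKM and at 41.8 and 32.5. The adaptor gene Slc4a1ap was at 10.5 and 8.18 FPKM, and Slc7a6os at 22.2 and 21.8.

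Other transporter groups were set beside the solute carriers as values only, without a test of the difference. Their counts stand beside 6.22% lower and 2.68% higher among all genes compared. Of 28 ABC transporter genes 3 were lower and 1 was higher (median log2 ratio -0.37). Abcg2, a drug and urate exporter, was at 28.3 FPKM (f/f) against 8.36 (ed/ed), Abcb1a at 5.28 and 1.59, Abca2 at 3.75 and 1.19, and Abcc3 at 0.790 and 2.73. Of 43 ion-pumping and lipid-flipping ATPase genes 3 were lower and 0 higher (median -0.35). Atp2b2, a calcium pump of the plasma membrane, was at 21.3 and 8.19 FPKM, and the proton pump subunit genes Atp6v0a1 and Atp6v1g2 at 16.8 and 6.83 and at 6.40 and 2.65. Of 23 potassium channel genes 2 were lower and 1 higher, with Kcnc4 at 8.44 and 0.168 FPKM, Kcng4 at 1.83 and 0.356, and the regulatory subunit gene Kcne3 at 16.7 and 68.6.

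Longer transcripts tended to lower ratios: Spearman rho between log2 ratio and transcript length was -0.16 over the 208 members and -0.22 over all genes compared, given as a description. The median transcript length was 3329 nt in the lower members, 3461 nt in the higher and 3410 nt in all members. With the length trend removed, 15 of the 21 lower and all 7 higher members were still past 2-fold.

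The counts moved with the scale, as did those of all genes. With a pseudocount of 0.1 FPKM, 10 members were higher and 32 lower, where 4.02% and 11% of all genes were called. With 5 FPKM there were 1 and 10, where 0.921% and 1.7% were called. A 1.5-fold rule called 15 and 55 members, beside 7.04% and 23.4% of all genes. Lower members outnumbered higher ones under each scaling, although among all genes the order turned under the median ratio, the upper quartile and reference genes. Scaled to the sum, 8 members were higher and 18 lower, beside 3.17% and 4.99% of all genes. Scaled by the median ratio there were 11 and 16, beside 4.75% and 3.25%. By the upper quartile there were 10 and 16, beside 4.05% and 3.88%. By reference genes there were 11 and 16, beside 4.67% and 3.29%. With the length trend removed there were 11 and 15, beside 4.33% and 2.86%.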

How the data were processed

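Total RNA of whole uterus was sequenced in 2 libraries, prepared with a TruSeq RNA kit per the labels' protocols. The deposited values were taken as FPKM made by the authors: the submitters' processing notes name HISAT2 2.2.1 and Cufflinks 2.2.1, which writes FPKM, while the file headers name no unit. The notes name mm9 and mm10 without a role. The sources used here do not name the annotation, filters, strand or handling of shared reads.

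The log2 ratio of ed/ed over f/f was computed from FPKM + 1 for genes reaching 1 FPKM in at least 1 library and called at 2-fold, a rule of size, since 1 library per genotype allows no test. Coordinates and transcript lengths came from GENCODE M21 (GRCm38), matched for 20571 of 20634 genes. They locate genes, not reads. Depth came from the spacing of FPKM times effective length (transcript minus 250 nt) in single-transcript genes over 1000 nt. The ratio intervals are exact (Clopper-Pearson) for a binomial share of estimated fragments and depend on that estimate. Scripts (Python 3.11.15, scipy 1.17.1, statsmodels 0.14.6) were tested on simulated data.

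Named genes were the 15 highest and 15 lowest ratios, the 10 most abundant members, in each class the 4 largest absolute ratios and the 2 most abundant, all Slc3 and Slc51 genes and Slc9a3 regulators, the genes on each side of the threshold, and partner genes past 2-fold. The members, substrate classes and lists were chosen with earlier results of these data known. Slc7a6os was moved out of the transporters after the tables were read. Alternatives were 2 pseudocounts, 3 filters, a 1.5-fold rule, 4 scalings and removal of the length trend by lowess (fraction 0.3).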

Additional observations from a re-analysis of the deposited data

How the results depend on the processing

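As reported, 7 members were higher, 21 were lower and the median log2 ratio was -0.24. With a pseudocount of 0.1 FPKM, 32 members were lower. With a pseudocount of 5 FPKM, 1 was higher and 10 lower, and the median was -0.15. Without a filter the median was -0.15. At 1.5-fold, 15 were higher and 55 lower, where 7.04% and 23.4% of all genes were called. Scaling to the sum gave a median of -0.17 and the upper quartile -0.078. Scaling by the median ratio gave 11 higher and a median of -0.006, and reference genes 11 higher and -0.016. With the length trend removed 11 were higher and the median turned to 0.016. The other counts stayed within 1.5 times. No named gene past 2-fold changed sign under the alternatives run, but that outcome was largely set by their construction. A pseudocount, a filter or another fold rule cannot change the sign of a ratio. The scalings move log2 values by at most 0.28, too little to turn a gene past 2-fold. The unchanged signs are therefore no separate support for the calls. Of the 28 genes, 9 were not lost or filtered out under any alternative: Slc16a12, Slc51a, Slc13a5, Slc6a14, Slc23a1, Slc10a3, Slc6a2, Slc31a2 and Slc28a3. Slc5a5 and Slc24a4 were lost only to the filter of 1 FPKM in both libraries. The cause of these shifts was not tested beyond the construction of each alternative. No paired analysis was possible because each genotype has 1 library. Depth limits genes near 1 FPKM, with about 30 fragments for a 2000-nt transcript.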
